A study of Mus musculus with 22 samples.

Results

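The account below concerns 10 genes of innate sensing and NF-κB signalling in mouse liver: the sensors *Tlr2*, *Tlr4* and *Cd14*, the cytokines and cytokine antagonist *Tnf*, *Il1b* and *Il1rn*, the inflammasome receptor *Nlrp3*, the feedback inhibitors *Tnfaip3* and *Nfkbia*, and the adhesion molecule *Icam1*. Each was taken by its symbol from a table of read counts for 55573 genes, and all 10 of 10 were among the 14062 genes tested, whose counts averaged 10 or more over the libraries. Liver mRNA of 22 C57BL/6 mice was sequenced, 1 library each, in a design of 2 genotypes and 2 diets. Control mice (Cre mice) were Flcn WT/WT; Albumin-cre+/-, and liver-*Flcn*-/- mice (labelled FLCN KO) were Flcn f/f; Albumin-Cre+/-, so both genotypes carried the recombinase. The albumin promoter drives it in cells of the hepatocyte lineage, so that immune and endothelial cells of the liver are not its target. From 6 weeks of age the mice ate either chow, here a purified diet low in fat, or a diet deficient in methionine and choline (MCD), for 6 weeks, and they were 3 months old. Chow was eaten by 6 Cre and 5 liver-*Flcn*-/- mice, MCD by 5 Cre and 6 liver-*Flcn*-/- mice. The gene counts of a library summed to between 13751347 and 21144388 reads.

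Toll-like receptors recognise microbial and damage-associated molecules, with TLR2 binding lipoproteins and TLR4 binding lipopolysaccharide that CD14 hands over to it. Their adaptors switch on the IKK kinases, which release NF-κB from its inhibitor IκBα, and NF-κB then enters the nucleus and induces cytokines, adhesion molecules and its own inhibitors. In liver these genes are used most by Kupffer cells, infiltrating monocytes, neutrophils and endothelium, and hepatocytes respond to the cytokines. The MCD diet is a standard model of steatohepatitis, in which lipid accumulation is joined by inflammation.

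The promoter stretches of 3 genes are shown because each holds an NF-κB consensus match, while their genes behaved differently in the livers: *Tlr2* and *Tnfaip3* responded to the diet in Cre mice, and *Nfkbia*, which encodes IκBα, did not pass the test. The sequences come from RefSeq (GRCm38.p6), all on the minus strand and written 5′ to 3′, and capitals mark the match. The *Tlr2* stretch is chr3:83841709-83841808, which begins at -200 relative to the transcription start, the *Tnfaip3* stretch is chr10:19015411-19015510 and the *Nfkbia* stretch is chr12:55492648-55492747, the latter pair from -100 to -1.
Tlr2: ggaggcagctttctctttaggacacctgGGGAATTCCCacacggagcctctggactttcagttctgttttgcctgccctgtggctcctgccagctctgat
Tnfaip3: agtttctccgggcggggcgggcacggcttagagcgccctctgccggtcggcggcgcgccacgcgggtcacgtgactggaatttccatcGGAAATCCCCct
Nfkbia: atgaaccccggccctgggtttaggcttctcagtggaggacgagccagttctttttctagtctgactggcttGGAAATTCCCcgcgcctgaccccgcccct
The match lies at -172 to -163 in *Tlr2*, at -12 to -3 in *Tnfaip3* and at -29 to -20 in *Nfkbia*. These positions count from RefSeq's starts. The GENCODE annotation, used for the gene positions below, places the starts of *Tnfaip3* and *Tlr2* further upstream. By it the whole *Tnfaip3* stretch with its match, and part of the *Tlr2* stretch, lie inside the gene. Windows from 250 bases before to 50 bases after the start were available for 8 of the 10 genes (12 windows), without *Cd14* and *Tlr4*. The consensus, searched on both strands, was found in 4 of these 12 windows, 1 each of *Tlr2*, *Tnfaip3*, *Nfkbia* and *Nlrp3*, and in 5.8% of all 32851 windows of the table. A second motif (3 G, any 2 bases, 3 T and 2 C, on either strand) was found in 4 of the 12 windows and in 1.63% of all windows. It coincided with the consensus match in *Tnfaip3* and *Nfkbia*, and the other 2 windows overlap at *Il1rn* and share 1 match. Neither was found in the windows of *Tnf*, *Il1b* and *Icam1*. Matches are letters in a window and say nothing of binding.

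Levels are given as CPM, a gene's reads per 1000000 reads of its library after scaling by edgeR's TMM factors, and changes as log2 fold changes from edgeR's quasi-likelihood fit of the 4 groups with its standard error (SE). A gene was called at a Benjamini-Hochberg adjusted p under 0.05 over the 14062 genes. An exact permutation test (two-sided, of log2 CPM) was run for each gene as well, and its smallest possible p here was 0.00216.

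*Flcn* itself (chromosome 11, 59791408 to 59810016) was measured first. On chow it reached 26.11 to 40.17 CPM in Cre mice (median 31.75) and 24.2, 19.96, 16.72, 19.41 and 21.77 CPM in liver-*Flcn*-/- mice. These groups did not overlap, and the log2 difference was -0.63 (SE 0.173, edgeR adjusted p = 0.0249). On MCD the groups overlapped, with 31.75, 18.19, 39.89, 32.45 and 23.62 CPM in Cre mice and 17.62 to 32.6 CPM (median 26.62) in liver-*Flcn*-/- mice, a log2 difference of -0.16 (edgeR adjusted p = 0.567). The knockout removes an exon and the count covers the whole gene in all liver cells, so this level does not check the deletion. The hepatocyte markers were abundant in every group, and *Alb* alone had a mean of 79160 CPM.

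Some libraries stood apart. Skeletal muscle genes (8 markers, with *Myh1* the most abundant) summed to 2337 CPM in Cre MCD mouse 3, 114.8 in Cre MCD mouse 4, 15.15 in Cre MCD mouse 1, 51.25 in liver-*Flcn*-/- MCD mouse 3 and 10.54 in liver-*Flcn*-/- chow mouse 3, against at most 4.871 CPM in each of the other livers. In addition, 5 chow libraries (Cre mice 1, 5 and 6, liver-*Flcn*-/- mice 1 and 3) had a low share of uniquely mapped reads in the study's own statistics, and no MCD library did. The labels give no sex. By *Xist* and Y-linked counts each group held both sexes, with 3 livers high in *Xist* in each group.

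In Cre mice the MCD diet raised 6 of the 10 genes, *Cd14*, *Il1rn*, *Tnf*, *Tnfaip3*, *Icam1* and *Tlr2*, and lowered 0. Among all genes tested 29.3% were called higher and 28.2% lower in that comparison. The median log2 fold change of the 10 genes was 1.63, and that of all genes tested 0.01. The 6 were the only ones of the 10 at an unadjusted p under 0.05, and limma-voom and DESeq2 called the same numbers, 6 and 0. In liver-*Flcn*-/- mice MCD raised 3 of the 10, *Cd14*, *Il1rn* and *Icam1*, and lowered 1, *Tlr4*, where 22.5% of all genes were called higher and 22.5% lower. The median of the 10 was 0.27 there, against 0.00 for all genes. Without the 5 chow libraries of low mapping the call of *Icam1* in liver-*Flcn*-/- mice was lost (0.48, edgeR adjusted p = 0.0648). All 5 livers of Cre mice on MCD lay above all 6 on chow for the same 6 genes (15.6% of all genes did so), and the corresponding separation in liver-*Flcn*-/- mice held for *Cd14* and *Il1rn* (14.4% of all genes).

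**Figure D1:**
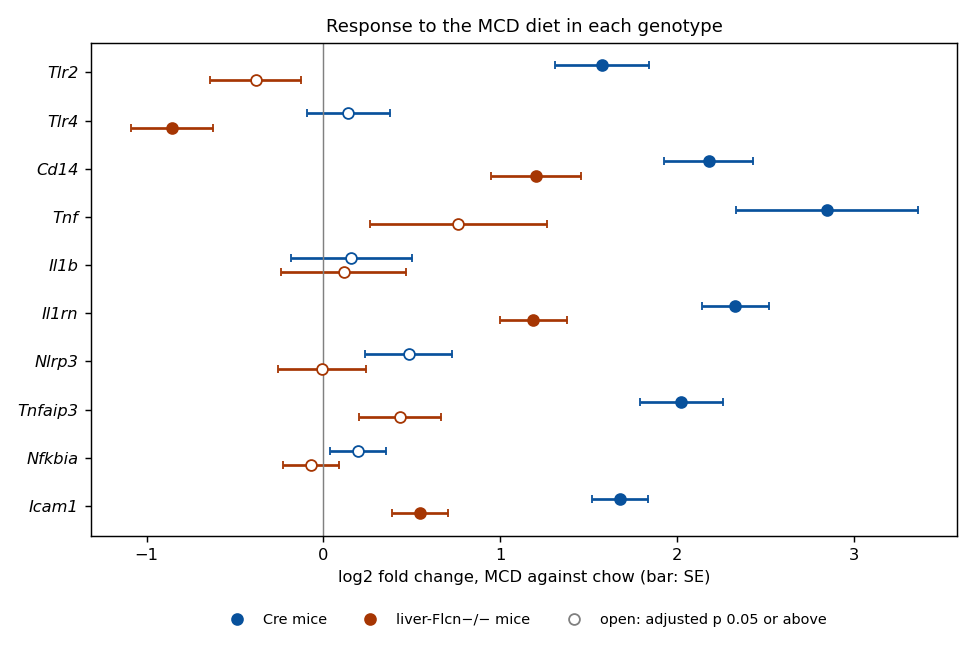
Log2 fold change of MCD against chow (x axis, bars 1 SE) for each of the 10 genes in Cre mice (blue) and liver-*Flcn*-/- mice (brown); filled points passed an adjusted p of 0.05. In Cre mice 6 genes lie between 1.57 and 2.85, while in liver-*Flcn*-/- mice the 3 that rose lie between 0.55 and 1.20 and *Tlr4* lies at -0.86.

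Whether the diet response differed between genotypes was tested by the interaction, the log2 response in liver-*Flcn*-/- mice minus that in Cre mice. It was called below 0 for *Tlr2*, *Tnfaip3*, *Il1rn* and *Icam1*, 4 of the 10 genes, and above 0 for 0, where 5.54% of all genes were called lower and 3.29% higher. The median interaction of the 10 genes was -1.07, and that of all genes 0.03. At an unadjusted p under 0.05, 7 were below 0 and 0 above, and limma-voom called 4 and DESeq2 called 7 below 0 and both 0 above. By the study's rule for differentially responsive genes, read here as an adjusted p under 0.05 with an absolute log2 fold change above 1 in at least 1 genotype and a difference between the responses above 1, *Tlr2*, *Tnf*, *Il1rn*, *Tnfaip3* and *Icam1* passed, against 8.74% of all genes.

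*Tlr2* (chromosome 3, 83836272 to 83841767, protein-coding) showed the largest called difference between the diet responses among the 10 genes. In Cre mice on chow it lay between 1.366 and 3.315 CPM (median 2.771), and on MCD at 10.13, 3.792, 8.015, 9.46 and 8.044 CPM. In liver-*Flcn*-/- mice it was at 5.37, 3.862, 7.052, 9.098 and 6.521 CPM already on chow, and between 3.006 and 6.844 CPM (median 5.132) on MCD. Thus the Cre chow livers lay below every Cre MCD and every liver-*Flcn*-/- chow liver, whereas the knockout livers on the 2 diets overlapped. MCD raised *Tlr2* by 1.57 on the log2 scale in Cre mice (SE 0.265, edgeR adjusted p = 3.52e-05), a fold of 2.98 with a 95% interval of 2.08 to 4.27. In liver-*Flcn*-/- mice the change was -0.38 (SE 0.257, edgeR adjusted p = 0.234). The interaction was -1.96 (SE 0.368, edgeR adjusted p = 0.00309). On chow *Tlr2* was 1.27 higher in liver-*Flcn*-/- than in Cre mice (SE 0.267, edgeR adjusted p = 0.00382, exact permutation p = 0.00216). Without the 5 chow libraries of low mapping this chow call was lost (1.21, edgeR adjusted p = 0.084). On MCD the difference was -0.69 (SE 0.254, edgeR adjusted p = 0.0681). Without Cre MCD mouse 2, the lowest of its group, it was -0.86 (edgeR adjusted p = 0.0138).

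*Tlr4* (chromosome 4, 66827584 to 66930284), the lipopolysaccharide receptor, did not pass the test for the diet in Cre mice, where it lay between 1.028 and 2.779 CPM on chow and at 1.935, 1.896, 3.047, 2.038 and 1.435 CPM on MCD (log2 fold change 0.14, edgeR adjusted p = 0.621). In liver-*Flcn*-/- mice it was at 1.712, 2.674, 2.485, 1.765 and 2.802 CPM on chow and between 0.8649 and 1.622 CPM (median 1.324) on MCD. Every knockout liver on MCD was below every one on chow, as for 14.8% of all genes. *Tlr4* fell by 0.86 on the log2 scale (SE 0.234, edgeR adjusted p = 0.00496), and on MCD *Tlr4* was lower in liver-*Flcn*-/- than in Cre mice by a log2 difference of -0.71 (edgeR adjusted p = 0.0392). This call was lost in 7 of 22 fits without 1 mouse (Cre MCD mouse 1, 3 or 4, or liver-*Flcn*-/- MCD mouse 1, 3, 4 or 5) and in 4 of 10 other alternatives, among them the replicate block (edgeR adjusted p = 0.0616). Without Cre MCD mouse 3, the liver with the highest *Tlr4* and the muscle genes, that difference was -0.53 (edgeR adjusted p = 0.119). The interaction for *Tlr4* was -0.998 (edgeR adjusted p = 0.0611).

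*Cd14*, the co-receptor that presents lipopolysaccharide to TLR4, rose on MCD in both genotypes. It lay between 1.976 and 5.818 CPM in Cre mice on chow and at 19.89, 18.49, 9.656, 21.39 and 16.55 CPM on MCD. The knockout livers had 5.992, 2.614, 5.843, 5.018 and 3.826 CPM on chow and 8.45 to 16.27 CPM (median 9.745) on MCD. In each genotype all MCD livers were above all chow livers. The log2 fold change was 2.18 in Cre mice (SE 0.253, edgeR adjusted p = 3.14e-07) and 1.20 in liver-*Flcn*-/- mice (SE 0.254, edgeR adjusted p = 0.000584), and the interaction of -0.97 did not pass (edgeR adjusted p = 0.0861). The genotype difference on MCD was -0.69 (edgeR adjusted p = 0.0514) and, without Cre MCD mouse 3, -0.84 (edgeR adjusted p = 0.0141). The interaction without that mouse was -1.12 (edgeR adjusted p = 0.0339). Without the 5 chow libraries of low mapping the interaction was -0.66 (edgeR adjusted p = 0.32). Without those 5 and that mouse it was -0.81 (edgeR adjusted p = 0.128). It was called in 3 of 22 fits without 1 mouse and in 1 of 9 other alternatives. Relative to *Tlr4*, *Cd14* counts were 2.1 ± 0.717 (SD, n = 6) and 9.04 ± 3.34 (n = 5) to 1 in Cre mice on chow and MCD, and 2.21 ± 1.04 (n = 5) and 8.75 ± 2.57 (n = 6) to 1 in liver-*Flcn*-/- mice.

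**Figure D2:**
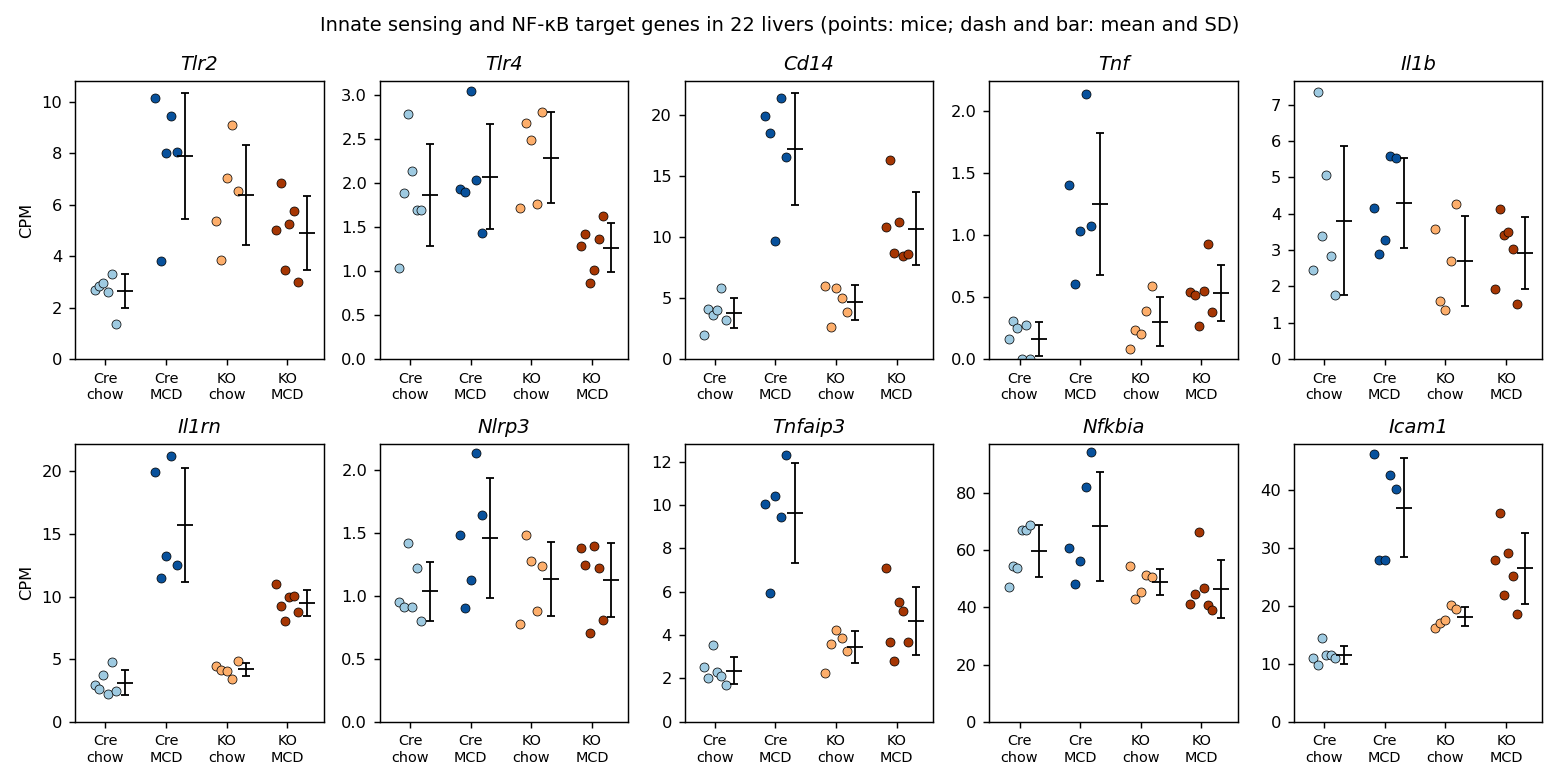
CPM (y axis, linear, from 0) of the 10 genes in each of the 22 livers by group, with dash and bar for the mean and SD. Cre chow livers are the lowest group for *Tlr2* (1.366 to 3.315 CPM), and Cre MCD livers the highest for *Il1rn* (11.51 to 21.25 CPM), with liver-*Flcn*-/- MCD livers below them (8.055 to 11.03 CPM).

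*Tnf* (chromosome 17, 35199381 to 35202007), the prototypic inflammatory cytokine, was the scarcest of these genes and rests on few reads. It had 0 to 5 counts per liver in Cre mice on chow (15 in all), and 1.4, 0.6033, 1.031, 2.135 and 1.076 CPM on MCD, equal to 14 to 44 counts. Liver-*Flcn*-/- mice had 0.07782, 0.2377, 0.2015, 0.386 and 0.5928 CPM on chow and 0.2703 to 0.9281 CPM (median 0.5292, 5 to 19 counts) on MCD. The Cre MCD livers were all above the Cre chow livers, and the knockout livers on the 2 diets overlapped. MCD raised *Tnf* by 2.85 in Cre mice (SE 0.513, edgeR adjusted p = 7.49e-05), and the change in liver-*Flcn*-/- mice was 0.76 (SE 0.501, edgeR adjusted p = 0.225). Its interaction was -2.09, with the widest error of the 10 genes (SE 0.737, edgeR adjusted p = 0.0784), and its genotype difference on MCD was -1.22 (edgeR adjusted p = 0.053; -1.28 and 0.0483 without Cre MCD mouse 3).

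*Il1b* (chromosome 2, 129364570 to 129371139), which encodes interleukin-1β, passed no test. It lay between 1.768 and 7.347 CPM in Cre mice on chow and at 4.159, 2.887, 3.281, 5.579 and 5.533 CPM on MCD, and at 3.58, 1.604, 1.343, 2.702 and 4.257 CPM and 1.527 to 4.132 CPM in liver-*Flcn*-/- mice on chow and MCD. All 4 groups overlapped. The diet response was 0.16 in Cre mice (edgeR adjusted p = 0.714), a fold of 1.12 with a 95% interval of 0.7 to 1.78, and 0.11 in liver-*Flcn*-/- mice (edgeR adjusted p = 0.812). The direction in Cre mice turned to -0.30 without the 5 chow libraries of low mapping.

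*Il1rn* (chromosome 2, 24336853 to 24351494) encodes the secreted antagonist that competes with interleukin-1 for its receptor, and it was the 1 gene of the 10 whose genotypes did not overlap on MCD, where 3.53% of all genes lay lower in liver-*Flcn*-/- mice without overlap. Cre mice had 2.191 to 4.803 CPM on chow (median 2.768) and 19.93, 11.51, 13.27, 21.25 and 12.55 CPM on MCD. Liver-*Flcn*-/- mice had 4.436, 4.159, 4.03, 3.419 and 4.85 CPM on chow and 8.055 to 11.03 CPM (median 9.593) on MCD. Within each genotype the MCD livers were all above the chow livers, and on MCD every knockout liver was below every Cre liver. MCD raised *Il1rn* by 2.33 in Cre mice (SE 0.189, edgeR adjusted p = 2.18e-09) and by 1.19 in liver-*Flcn*-/- mice (SE 0.189, edgeR adjusted p = 3.13e-05), and the interaction was -1.14 (SE 0.264, edgeR adjusted p = 0.0109). On MCD the genotype difference was -0.72 (SE 0.177, edgeR adjusted p = 0.00705; exact permutation p = 0.00216). On chow it was 0.42 (edgeR adjusted p = 0.196). The ratio of *Il1rn* to *Il1b* counts was 1.03 ± 0.533 (SD, n = 6) in Cre mice on chow and 3.78 ± 0.924 (n = 5) on MCD, and 1.85 ± 0.878 (n = 5) and 3.71 ± 1.62 (n = 6) in liver-*Flcn*-/- mice.

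*Nlrp3* (chromosome 11, 59541568 to 59566956) encodes the sensor of the inflammasome that matures interleukin-1β, and it also passed no test. Its range was 0.8035 to 1.42 CPM in Cre mice on chow and 0.9049 to 2.135 CPM on MCD, and 0.7782 to 1.485 CPM and 0.7027 to 1.395 CPM in the knockout. The diet response was 0.48 in Cre mice (SE 0.247, edgeR adjusted p = 0.1; 0.61 and 0.0395 without Cre MCD mouse 2, which had the lowest level of its group) and -0.01 in liver-*Flcn*-/- mice (edgeR adjusted p = 0.981), with an interaction of -0.49 (edgeR adjusted p = 0.419).

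The 2 feedback inhibitors differed from each other. *Tnfaip3* (chromosome 10, 19000910 to 19015657) encodes A20, an enzyme that edits ubiquitin chains and shuts off signalling upstream of IKK. It lay between 1.687 and 3.52 CPM (median 2.205) in Cre mice on chow and at 10.05, 5.947, 10.41, 9.46 and 12.3 CPM on MCD, and at 2.257, 3.565, 4.231, 3.86 and 3.287 CPM and 2.811 to 7.093 CPM (median 4.415) in liver-*Flcn*-/- mice. All Cre MCD livers were above all Cre chow livers, and the knockout diets overlapped. MCD raised it by 2.02 in Cre mice (SE 0.235, edgeR adjusted p = 3.2e-07), and the change in liver-*Flcn*-/- mice was 0.43 (SE 0.233, edgeR adjusted p = 0.136). The interaction was -1.59 (SE 0.328, edgeR adjusted p = 0.00537). On MCD *Tnfaip3* was lower in liver-*Flcn*-/- mice by a log2 difference of -1.05 (SE 0.223, edgeR adjusted p = 0.00267), a fold of 0.485 with a 95% interval of 0.358 to 0.656, although 1 knockout liver at 7.093 CPM lay above the lowest Cre liver at 5.947 CPM.

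*Nfkbia* (chromosome 12, 55489410 to 55492647) was the most abundant of the 10 genes and did not pass the diet test in either genotype. Cre mice had 47.12 to 68.78 CPM on chow and 60.98, 48.13, 56.3, 82.08 and 94.42 CPM on MCD. Liver-*Flcn*-/- mice had 54.47, 42.96, 45.27, 51.34 and 50.6 CPM on chow and 39.17 to 66.33 CPM (median 43.02) on MCD. The groups overlapped in every comparison. The response was 0.20 in Cre mice (edgeR adjusted p = 0.303), a fold of 1.14 with a 95% interval of 0.923 to 1.42, and -0.07 in liver-*Flcn*-/- mice (edgeR adjusted p = 0.738). On MCD *Nfkbia* was lower in liver-*Flcn*-/- mice by a log2 difference of -0.55 (SE 0.158, edgeR adjusted p = 0.0187; exact permutation p = 0.0346). The call was lost without Cre MCD mouse 4 (-0.48, edgeR adjusted p = 0.0634) or mouse 5 (-0.41, edgeR adjusted p = 0.0675). The ratio of *Tnfaip3* to *Nfkbia* counts was 0.041 ± 0.0154 (SD, n = 6) and 0.144 ± 0.0298 (n = 5) in Cre mice on chow and MCD, and 0.0716 ± 0.0199 (n = 5) and 0.106 ± 0.0438 (n = 6) in liver-*Flcn*-/- mice.

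*Icam1* (chromosome 9, 21015985 to 21028817) encodes an adhesion molecule on endothelium and activated hepatocytes to which leukocyte integrins bind. In Cre mice it lay between 9.776 and 14.45 CPM (median 11.18) on chow and at 46.07, 27.79, 27.89, 42.45 and 40.12 CPM on MCD. In liver-*Flcn*-/- mice it was at 16.19, 17.05, 17.53, 20.18 and 19.45 CPM on chow and between 18.56 and 36.03 CPM (median 26.49) on MCD. On chow every knockout liver was above every Cre liver, as for *Tlr2* and 4.01% of all genes, whereas on MCD the genotypes overlapped. MCD raised *Icam1* by 1.68 in Cre mice (SE 0.157, edgeR adjusted p = 1.67e-08) and by 0.55 in liver-*Flcn*-/- mice (SE 0.156, edgeR adjusted p = 0.0068), with an interaction of -1.13 (SE 0.219, edgeR adjusted p = 0.00363). The genotype difference was 0.65 on chow (SE 0.158, edgeR adjusted p = 0.0112). Without the 5 chow libraries of low mapping this chow call was lost (0.67, edgeR adjusted p = 0.147). On MCD the difference was -0.48 (SE 0.152, edgeR adjusted p = 0.0336). The call on MCD was lost in 6 of 22 fits that left out 1 mouse (edgeR adjusted p up to 0.114). These left out Cre MCD mouse 1, 4 or 5, or liver-*Flcn*-/- MCD mouse 3, 5 or 6.

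Between genotypes on chow, *Tlr2* and *Icam1* were higher in liver-*Flcn*-/- mice and 0 of the 10 genes were lower, where 5.52% of all genes were called higher and 3.1% lower. The median log2 difference of the 10 was 0.35, and that of all genes -0.03. At an unadjusted p under 0.05, 4 were higher and 0 lower, and limma-voom and DESeq2 each called 2 higher and 0 lower. Without the 5 chow libraries of low mapping, 0 of the 10 were called by edgeR (3 were higher and 1 lower at an unadjusted p under 0.05), with log2 differences of 1.21 for *Tlr2* (edgeR adjusted p = 0.084) and 0.67 for *Icam1* (edgeR adjusted p = 0.147) over 3 mice a group. Within the libraries of low mapping (2 knockout and 3 Cre mice) the difference was 1.37 for *Tlr2* and 0.593 for *Icam1*. Within the others (3 and 3) it was 1.1 and 0.678. For both genes the genotypes did not overlap over all chow livers, so neither class could show overlap. For *Cd14* the corresponding values were 0.805 and -0.0704. Markers of other cells differed in the same comparison: of 7 monocyte and monocyte-derived macrophage markers 3 were called higher in liver-*Flcn*-/- mice and 0 lower, with a median log2 difference of 1.25 and sums of 3.558 to 5.818 CPM in Cre and 8.249 to 24.87 CPM in liver-*Flcn*-/- livers. Of the 5 pan-leukocyte, 6 Kupffer cell, 8 endothelial and 5 bile duct cell markers 1 each was called higher. The bile duct sum was 64.14 ± 18 CPM (SD, n = 6) in Cre and 124.2 ± 47.28 CPM (n = 5) in liver-*Flcn*-/- livers. *Spp1* alone made up 79% of the bile duct sum over all livers. The median log2 difference of the 5 bile duct markers was 0.08, with 3 above 0 and 2 below. The T and NK cell sum lay between 4.33 and 5.928 CPM in Cre and between 6.467 and 8.949 CPM in liver-*Flcn*-/- livers, without overlap, although 0 of its 5 tested markers were called by edgeR (2 at an unadjusted p under 0.05). Of 4 B cell markers 0 were called (0 at an unadjusted p under 0.05), with a median log2 difference of 0.82, and of 8 hepatocyte markers 1 was called lower, with a median of -0.45. The part of these cells in the chow differences of *Tlr2* and *Icam1* was not tested.

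Between genotypes on MCD, 5 of the 10 genes were lower in liver-*Flcn*-/- mice, *Tlr4*, *Il1rn*, *Tnfaip3*, *Nfkbia* and *Icam1*, and 0 were higher, where 8.53% of all genes were called lower and 8.06% higher. The median log2 difference was -0.69, against -0.01 for all genes, and 8 of the 10 were lower and 0 higher at an unadjusted p under 0.05. Limma-voom called 7 and DESeq2 called 8 lower, and both called 0 higher. This comparison shares the Cre MCD livers with the diet comparison in Cre mice, so that the values are not independent of those above. How many of the 10 passed depended on single mice: the count ranged from 2 to 7 over fits without 1 mouse each. It was 2 without Cre MCD mouse 4, 3 without Cre MCD mouse 1, Cre MCD mouse 5 or liver-*Flcn*-/- MCD mouse 3, and 6 without Cre MCD mouse 3. *Il1rn* and *Tnfaip3* were called in all 22 of these fits.

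**Figure D3:**
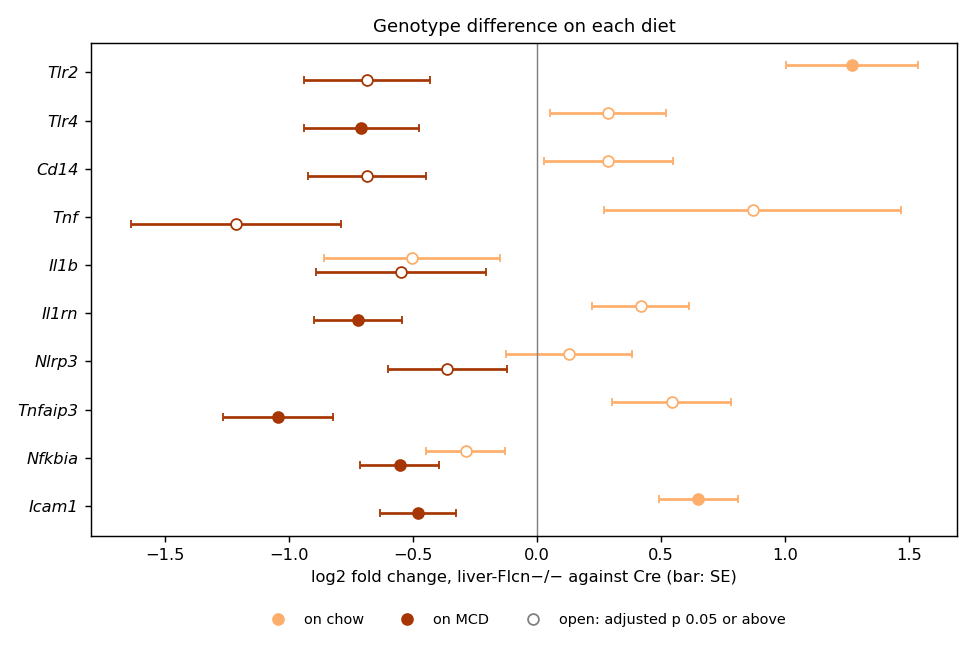
Log2 difference of liver-*Flcn*-/- from Cre mice (x axis, bars 1 SE) on chow (light) and on MCD (dark) for the 10 genes; filled points passed an adjusted p of 0.05. On chow *Tlr2* (1.27) and *Icam1* (0.65) lie to the right, and on MCD *Tnfaip3* (-1.05) and *Il1rn* (-0.72) lie to the left.

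Per kilobase of exon (CPM per kb, a level), *Nfkbia* was highest in every group, with 37.09, 42.47, 30.39 and 28.91 in Cre chow, Cre MCD, liver-*Flcn*-/- chow and liver-*Flcn*-/- MCD livers, and did not overlap the next gene. *Icam1* and *Cd14* followed in each group, at 2.641 and 2.182 CPM per kb in Cre mice on chow and 8.455 and 9.928 on MCD, and overlapped each other except in liver-*Flcn*-/- mice on chow (4.147 and 2.69). *Il1b* came next in Cre mice on chow (1.997), *Il1rn* in Cre mice on MCD (2.837), where it overlapped *Tlr2* (2.617). The lowest gene was *Tnf* on chow in both genotypes (0.09958 and 0.1825, the latter overlapping *Nlrp3*), *Nlrp3* in Cre mice on MCD (0.3592) and *Tlr4* in liver-*Flcn*-/- mice on MCD (0.2271), which each overlapped the next gene in the order.

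The other genes of the pathway were followed in 5 lists. Their counts are to be read against the shares of all genes called. On MCD these shares were 29.3% higher and 28.2% lower in Cre mice and 22.5% each way in the knockout. For the interaction they were 3.29% higher and 5.54% lower. A list near these shares did not stand apart from genes in general. Of 23 tested Toll-like receptors, co-receptors and adaptors, 8 rose and 5 fell on MCD in Cre mice, and 4 rose and 4 fell in the knockout, near the shares of all genes. The median log2 fold changes were 0.08 and -0.06, and the median interaction was -0.08. *Tlr1*, which pairs with TLR2, was at 0.8255 ± 0.381 CPM (SD, n = 6) in Cre mice on chow and 2.644 ± 0.6027 (n = 5) on MCD, and at 1.428 ± 0.2968 (n = 5) and 1.23 ± 0.4751 (n = 6) in liver-*Flcn*-/- mice. Its interaction was -1.87 (edgeR adjusted p = 0.014). *Tlr13*, a receptor for bacterial ribosomal RNA, rose by 2.23 in Cre mice (edgeR adjusted p = 4.75e-08) and by 0.84 in the knockout (edgeR adjusted p = 0.00426), with an interaction of -1.39 (edgeR adjusted p = 0.0102). *Lbp*, the hepatocyte protein that carries lipopolysaccharide to CD14, went the other way. It fell by 0.90 on the log2 scale in Cre mice (edgeR adjusted p = 0.000346), with 0.20 in liver-*Flcn*-/- mice (edgeR adjusted p = 0.386), and on MCD it was at 48.29 ± 7.982 CPM (n = 5) in Cre and 137.2 ± 37.08 CPM (n = 6) in liver-*Flcn*-/- mice. Its interaction of 1.11 (edgeR adjusted p = 0.0129) was the only one called above 0 in this list. Of the 23, 5 were called below 0, where 5.54% of all genes were called lower and 3.29% higher. *Cd36*, a fatty acid transporter and co-receptor of TLR2, rose in both genotypes (3.24 and 2.40, edgeR adjusted p = 1.64e-08 and 2.12e-06), and the adaptor gene *Tirap* changed by -0.92 in both (edgeR adjusted p = 1.94e-08 and 3.36e-08).

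Of 20 tested NF-κB subunits, IκB proteins and IKK components, 9 rose and 4 fell on MCD in Cre mice, and 4 rose and 4 fell in the knockout, the latter near the shares of all genes. Between genotypes on MCD, 8 were lower and 0 higher in liver-*Flcn*-/- mice, where 8.53% of all genes were called lower. The interaction was called below 0 for 4 and above 0 for 0 (5.54% and 3.29% of all genes), with a median of -0.20. *Relb*, a subunit of the non-canonical pathway, lay at 2.087 ± 0.6028 CPM (n = 6) on chow and 9.028 ± 2.203 (n = 5) on MCD in Cre mice, and at 3.298 ± 0.618 (n = 5) and 5.126 ± 1.054 (n = 6) in the knockout (interaction -1.46, edgeR adjusted p = 0.00396). *Nfkb2*, its partner, rose by 0.79 in Cre mice (edgeR adjusted p = 0.000108) and had -0.04 in liver-*Flcn*-/- mice (interaction -0.83, edgeR adjusted p = 0.0163), and *Nfkbie*, which encodes IκBε, rose by 1.13 (edgeR adjusted p = 5.6e-05) and had 0.04 (interaction -1.09, edgeR adjusted p = 0.0189). *Tnip1*, a binding partner of A20, rose in both, by 2.02 and 1.37 (edgeR adjusted p = 3.46e-10 and 1.72e-07), with an interaction of -0.65 (edgeR adjusted p = 0.0455). *Map3k14*, the kinase of the non-canonical pathway, rose by 1.16 and 0.95 (edgeR adjusted p = 1.87e-05 and 0.000245).

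Of 15 inflammasome genes, 7 rose and 3 fell on MCD in Cre mice and 1 rose and 3 fell in the knockout, with a median interaction of -0.33. The 3 that fell in Cre mice also fell in the knockout: *Nlrp6*, a sensor expressed in epithelia and hepatocytes (-2.52 and -2.01, edgeR adjusted p = 6.36e-11 and 1.38e-09), *Il18*, the other cytokine that caspase-1 matures (-1.38 and -1.36, edgeR adjusted p = 6.24e-08 and 1.28e-07), and *Gsdmd*, the pore-forming protein of pyroptosis (-0.92 and -0.97, edgeR adjusted p = 6.89e-06 and 5.58e-06). *Panx1*, a channel that releases ATP, was the 1 gene of this list with a called interaction (-1.22, edgeR adjusted p = 0.0283). Among 12 tested receptors and signalling proteins of interleukin-1 and TNF, 5 rose and 1 fell in Cre mice, with 4 up and 2 down in the knockout and a median interaction of 0.09, small counts in a list of this size. *Tnfrsf1a*, the main TNF receptor, rose by 0.76 and 0.33 (edgeR adjusted p = 1.85e-07 and 0.00297; interaction -0.42, edgeR adjusted p = 0.0299). *Il1rap*, the accessory chain of the interleukin-1 receptor, changed by -2.43 and -1.96 (edgeR adjusted p = 5.94e-08 and 9.7e-07), and *Fadd*, a death-domain adaptor, by 0.34 and 0.44 (edgeR adjusted p = 0.00251 and 0.000462).

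Of 22 tested other NF-κB target genes, 12 rose and 4 fell on MCD in Cre mice, with 5 up and 3 down in the knockout, where the share that rose was near that of all genes. The median log2 fold changes were 0.70 and 0.10 and the median interaction was -0.49. It was called below 0 for 5 and above 0 for 1 (5.54% and 3.29% of all genes). *Traf1*, an adaptor of TNF receptors, rose by 2.11 in Cre mice (edgeR adjusted p = 4.14e-05) and had 0.09 in liver-*Flcn*-/- mice, with an interaction of -2.02 (edgeR adjusted p = 0.0171). *Csf1*, the growth factor of macrophages, rose by 0.66 in Cre mice (edgeR adjusted p = 0.0027) and had -0.47 in the knockout (edgeR adjusted p = 0.0316), so that the interaction was -1.13 (edgeR adjusted p = 0.00748). *Sod2*, the mitochondrial superoxide dismutase, was the gene with a called interaction above 0, with -0.46 in Cre mice (edgeR adjusted p = 5.77e-06), 0.01 in liver-*Flcn*-/- mice and an interaction of 0.46 (edgeR adjusted p = 0.00459). *Ier3*, an early response gene, rose by 2.91 and 1.60 (edgeR adjusted p = 3.93e-08 and 8.15e-05) and *Gadd45b*, a stress-response gene, by 3.66 and 4.13 (edgeR adjusted p = 5.71e-08 and 3.6e-08), the latter with no called interaction (0.48, edgeR adjusted p = 0.637). *Bcl2a1b*, an anti-apoptotic gene, had an interaction of -2.08 (edgeR adjusted p = 0.0183), but shares near-identical sequence with its paralogs, so its counts are uncertain. *Il6* had at most 3 counts in every library and was not tested.

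**Figure D4:**
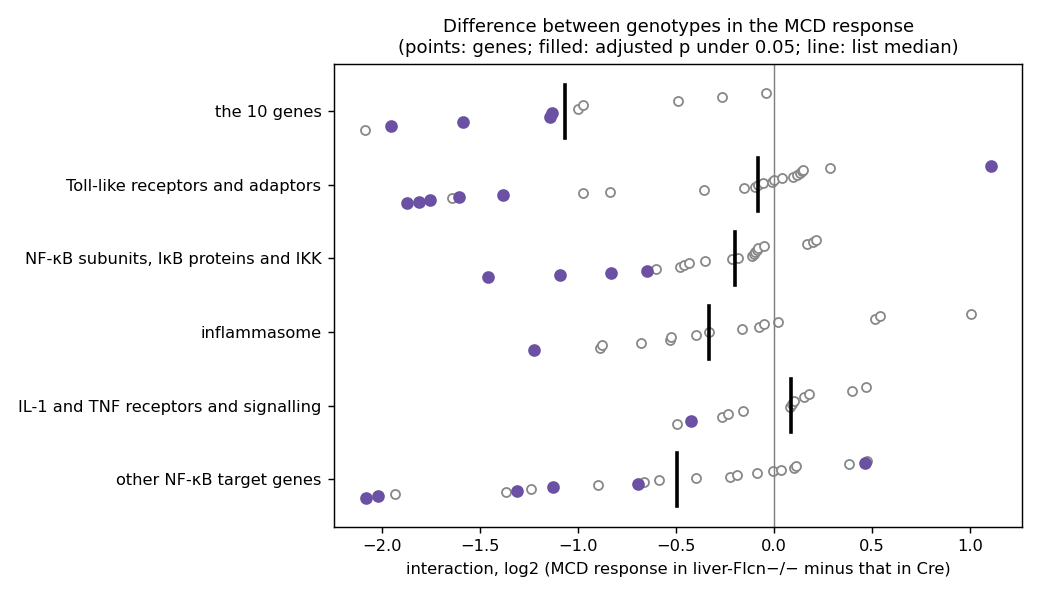
Interaction on the log2 scale (x axis, response to MCD in liver-*Flcn*-/- minus that in Cre mice) of each tested gene, by list; filled points passed an adjusted p of 0.05 and the vertical bar is the list's median. The medians are -1.07 for the 10 genes, -0.08 for the receptors and adaptors, -0.20 for the NF-κB subunits and IκB proteins, -0.33 for the inflammasome, 0.09 for the interleukin-1 and TNF receptors and -0.49 for the other NF-κB target genes.

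Whole liver was sequenced, so that fewer cells of a type and less RNA per cell cannot be told apart. Pan-leukocyte and monocyte markers moved in the same comparisons as the 10 genes, whereas most Kupffer cell and endothelial markers did not rise. Other leukocyte lists differed: most neutrophil markers rose in both genotypes with no called interaction, and no T and NK or B cell marker was called higher on MCD. Of all genes 29.3% were called higher and 28.2% lower on MCD in Cre mice, and 22.5% each way in the knockout. An interaction below 0 was called for 5.54% of all genes. Of 5 pan-leukocyte markers, 4 rose on MCD in Cre mice, 0 rose and 1 fell in the knockout, and 4 had a called interaction below 0. Their summed level (the most abundant was *Lcp1*) was 138.4 to 174.5 CPM in Cre mice on chow (median 162), 217.2, 165.6, 215.1, 246.7 and 186.4 CPM on MCD, 175.1, 189.5, 186, 147.3 and 176.3 CPM in liver-*Flcn*-/- mice on chow and 89.74 to 156.3 CPM (median 132.7) on MCD. For this sum every knockout liver on MCD was below every Cre liver, and *Lcp1* made up 59.8% of it. Of the 5 markers taken singly, 0 were lower without overlap, as were 3.53% of all genes. By edgeR 4 of the 5 were called lower on MCD in liver-*Flcn*-/- mice. The 7 markers of monocytes and monocyte-derived macrophages all rose on MCD in Cre mice, 4 rose in the knockout, and 6 had a called interaction below 0. Between genotypes on MCD, 3 of the 7 were called lower in liver-*Flcn*-/- mice and 0 higher (8.53% and 8.06% of all genes). Their median log2 difference was -0.93. Their sum was 3.558 to 5.818 CPM in Cre mice on chow and 153.7, 75.67, 322.8, 204.5 and 108.1 CPM on MCD, and 8.249, 10.75, 9.403, 24.87 and 16.27 CPM and 66.22 to 284.5 CPM (median 143.2) in liver-*Flcn*-/- mice. *Gpnmb* alone made up 77.6% of it. The part of these cell types in the changes of the 10 genes was not tested.

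The counts of other markers are to be read against the same shares of all genes. On MCD 29.3% were called higher and 28.2% lower in Cre mice, and 22.5% each way in the knockout. For the interaction 3.29% were called higher and 5.54% lower. Of 8 neutrophil markers 6 were tested, of which MCD raised 6 in Cre mice and 5 in the knockout, and none had a called interaction (0 of 6 by edgeR, 2 of 6 at an unadjusted p under 0.05). Their sum, led by *S100a9*, was 3.535 to 11.7 CPM and 18.75 to 66.09 CPM in Cre mice on chow and MCD, and 5.658 to 11.65 CPM and 12.36 to 31.64 CPM in liver-*Flcn*-/- mice. Of 10 macrophage markers, led by *Mpeg1*, 2 rose and 2 fell on MCD in Cre mice and 0 rose and 4 fell in the knockout, and 2 had a called interaction below 0, with sums of 506.4 ± 66.05 CPM (SD, n = 5) and 368.5 ± 92.35 CPM (n = 6) on MCD. Of 6 Kupffer cell markers, led by *Cd5l*, 1 rose and 3 fell in Cre mice, and 0 rose and 3 fell in the knockout. Of 8 endothelial markers, led by *Stab2*, 1 rose and 4 fell in Cre mice, and 0 rose and 6 fell in the knockout. Of the markers listed, none was at 3 counts or fewer in every library. Of 8 hepatocyte markers 6 fell on MCD in each genotype, and their sum was 137200 and 94440 CPM in Cre mice on chow and MCD and 111800 and 74440 CPM in liver-*Flcn*-/- mice.

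**Figure D5:**
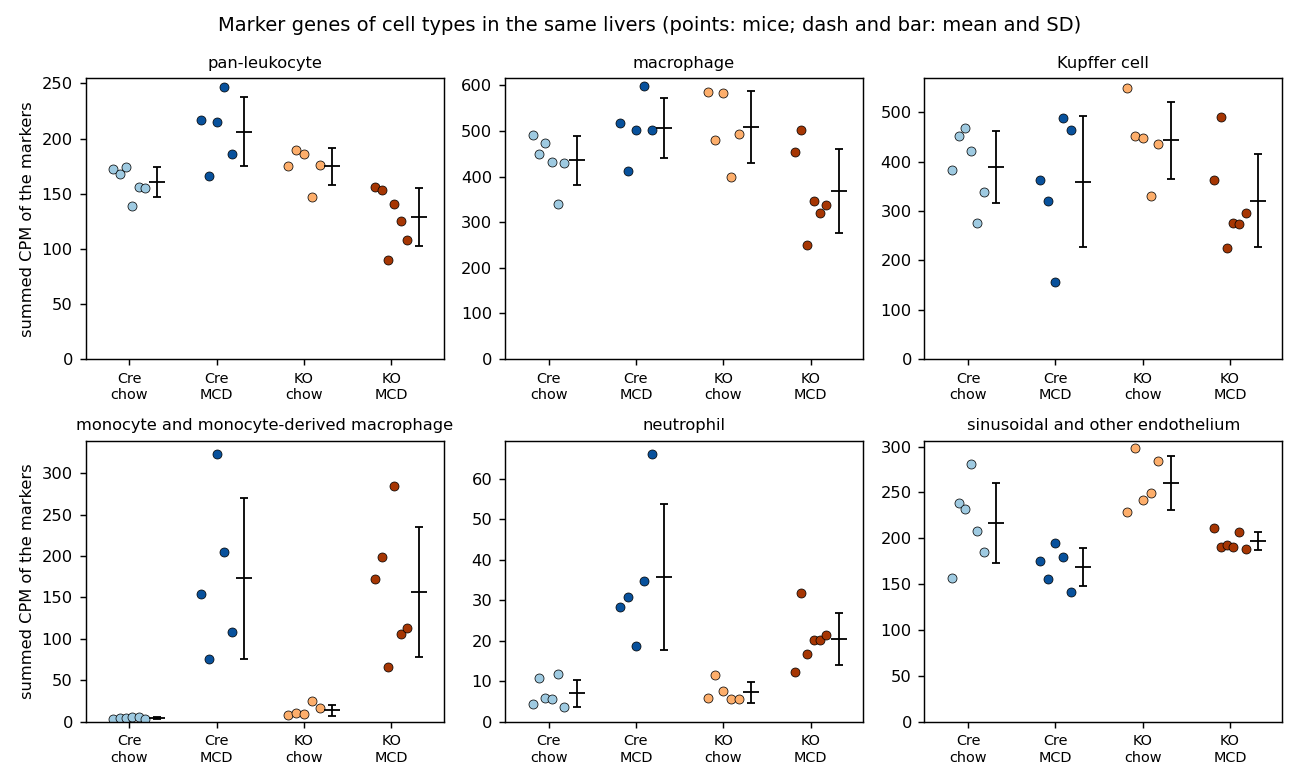
Summed CPM (y axis, linear, from 0) of the markers of 6 cell types in each liver by group, with dash and bar for the mean and SD. Pan-leukocyte sums on MCD lie between 165.6 and 246.7 CPM in Cre mice and between 89.74 and 156.3 CPM in liver-*Flcn*-/- mice.

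Among individual livers, after group means were removed, the genes that varied most like each member were found by Pearson's r of log2 CPM over the 22 livers. They are given as a description, since all values of a liver share its library. Each was picked for the highest r among all tested genes at 1 CPM or more on average. Values picked in this way run high even without a link. *Tlr4* went with the endothelial genes *Fgd5* (0.859) and *Pecam1* (0.791) and with *Shank3* (0.784), and *Icam1* with *Cd52* (0.799), *Atp2b1* (0.784) and *Slamf9* (0.778), of which *Cd52* is a leukocyte surface gene. *Tlr2* went with *Nfkbie* (0.788), *Ano6* (0.78) and *Slc38a1* (0.779), and *Cd14* with *S100a11* (0.827), *Atp6v0e* (0.808) and *Uap1l1* (0.804). *Nlrp3* went with *Plek* (0.769), *BC028528* (0.768) and *Inpp5d* (0.761), the first and last of them genes of blood cells, and *Tnfaip3* with *Rsu1* (0.786), *Irgm1* (0.781) and *Adam17* (0.775). *Il1b* went with *Tmem88* (0.792), *Rxrg* (0.777) and *Stx4a* (0.774), *Il1rn* with *Slc35d2* (0.668), *Nfxl1* (0.65) and *Nlrp3* (0.647), and *Nfkbia* with *B930095G15Rik* (0.815) and *5330406M23Rik* (0.785). Among the 10 genes themselves, 37 of 45 pairs had a positive r, with a median of 0.301. The highest value was 0.71 (*Nlrp3* with *Tnfaip3*) and the lowest -0.362 (*Tlr4* with *Nfkbia*). The same was not computed for pairs of other genes, so these values show nothing particular to the 10.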

How the data were processed

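Total RNA of liver was sequenced as single-end mRNA libraries. Per the submitters' processing notes and the study's methods, the authors trimmed reads with Trimmomatic, aligned them to GRCm38 with STAR and deposited HTSeq counts, whole numbers per gene without normalization. Adapters carried molecular identifiers, and a collapsing step, the strand setting and the annotation release are not given in the sources used here. Without strand, reads of *Il1b* and *Il1bos* (0 to 7 counts) and of *Icam1* and *Gm47079* (0 to 4 counts) cannot be told apart. All 22 columns were matched to samples by their labels (0 without one), and none of the 50 within-group pairs of libraries was identical (0 pairs, Spearman 0.939 to 0.994). Nothing in the labels ties mice to litters, and a p-value measures the spread between these mice.

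The counts were analysed in R 4.3.3 with edgeR 4.0.16. A gene was kept where its counts averaged 10 or more. The fit used TMM factors, 1 quasi-likelihood model of the 4 groups, two-sided tests and Benjamini-Hochberg adjustment over 14062 genes. CPM values use the TMM factors, and log2 CPM a prior count of 2. Up to 3 counts were taken as not distinguishable from 0, which covers counting error only. Limma-voom 3.58.1, DESeq2 1.42.0, RLE factors, other filters, the groups compared alone, sex as a covariate, leaving out libraries and the replicate number as a block were alternatives. The fit was tested on simulated data, where the interaction had the highest share of false calls and the lowest recovery of the comparisons. Gene positions are those of GENCODE M21 on GRCm38, and motif windows come from RefSeq's table.

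The 10 genes and all lists were chosen with earlier results of these data known. Named are all 10 genes, *Flcn*, up to 3 genes per pathway list with the lowest adjusted p for the MCD response in Cre mice and for the interaction, the most abundant marker of each list, and the 3 genes most like each member of at least 1 CPM on average, of which 1 is not reported here. The names of the 5 libraries of low mapping come from the study's statistics, and the fit without 6 libraries was added after seeing the data. The lists of stellate, T and NK, B and bile duct cells are given in the closing section.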

Additional observations from a re-analysis of the deposited data

Results flagged for a closer look

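Of 44 groups of livers examined, 4 groups for each of the 10 genes and *Flcn*, 3 held a liver far from the others by Dixon's criterion, for which chance gives about 1 in 20. *Tlr2* was at 1.366 CPM in Cre chow mouse 6, below the other 5 (2.617 to 3.315 CPM). *Cd14* was at 16.27 CPM in liver-*Flcn*-/- MCD mouse 2, above the other 5 (8.45 to 11.2 CPM), and *Nfkbia* was at 66.33 CPM in liver-*Flcn*-/- MCD mouse 3, above the other 5 (39.17 to 46.83 CPM). The last of these mice also had the lowest *Tlr4* (0.8649 CPM), *Tnf* (0.2703 CPM), *Il1rn* (8.055 CPM), *Nlrp3* (0.7027 CPM) and *Tnfaip3* (2.811 CPM) of its group, the lowest pan-leukocyte sum (89.74 CPM) and the lowest macrophage sum, and skeletal muscle genes at 51.25 CPM. The response to MCD differed between genotypes by the interaction term for *Tlr2* (-1.96), *Tnfaip3* (-1.59), *Il1rn* (-1.14) and *Icam1* (-1.13).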

How the results depend on the processing

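The interactions of *Tlr2*, *Il1rn*, *Tnfaip3* and *Icam1* were called in all 22 fits without 1 mouse and in all 9 other alternatives, the largest adjusted p by any tool being 0.0235, 0.0421, 0.0408 and 0.0304. The 6 diet calls in Cre mice held in all alternatives in which the gene was tested: *Tnf*, with a mean of 11.1 counts, fell below the filter without Cre MCD mouse 4. Among the calls on MCD those of *Il1rn* and *Tnfaip3* held throughout, and those of *Icam1* and *Tlr4* were each lost in 4 of 10 other alternatives (both with the replicate block, adjusted p = 0.09 and 0.0616) and that of *Nfkbia* in 1 (the 2 groups alone, 0.0555). Of the 10 genes, 8 were called lower on MCD by DESeq2, 3 with no filter on low counts and 3 with the replicate block (2 to 7 leaving out 1 mouse each), and 7 had a called interaction by DESeq2. Without the 5 chow libraries of low mapping, or without these and Cre MCD mouse 3 (chosen after seeing the data), 0 of the 10 were called on chow. All genes called between genotypes on chow numbered 1212, and 495 and 653 without these 5 or 6 libraries (669 to 1428 without 1 mouse, lowest without liver-*Flcn*-/- chow mouse 4). All genes with a called interaction numbered 1242, and 783 without the 5 libraries, 552 with the replicate block and 813 to 1422 without 1 mouse. The cause of these shifts was not tested. The replicate numbers, taken from the labels, do not pair the mice (same-numbered mice correlated by a mean r of -0.0842, -0.0112, 0.0614 and 0.129 in the 4 comparisons), and the block left *Tlr2*, *Il1rn*, *Tnfaip3* and *Icam1* called for the interaction.

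Directions turned only for values that passed no test. Without the 5 and without the 6 libraries the MCD response in Cre mice was -0.13 and -0.31 for *Tlr4* and -0.30 and -0.22 for *Il1b*, the chow difference of *Cd14* was -0.0258 and -0.0242, and the *Il1b* interaction was 0.33 and 0.25. With the block the *Il1b* interaction was 0.23 and the *Nlrp3* response in liver-*Flcn*-/- mice 0.0538. Leaving out 1 mouse each, the ranges that crossed 0 were -0.0378 to 0.289 (*Tlr4*, MCD in Cre mice), -0.0534 to 0.347 (*Il1b*, MCD in liver-*Flcn*-/- mice), -0.11 to 0.11 (*Nlrp3*, likewise) and -0.34 to 0.19 (*Il1b* interaction). Depth limits *Tnf* most, which had at most 3 counts in 5 livers.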

Other observations

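Markers of further cell types were followed in the same livers, where 29.3% of all genes were called higher and 28.2% lower on MCD in Cre mice and 22.5% each way in the knockout. Counts near these shares show nothing particular to a list. Of 7 stellate cell markers, led by *Ecm1*, MCD raised 2 in Cre mice and 0 in the knockout. On MCD 2 were lower in liver-*Flcn*-/- than in Cre mice, where 8.53% of all genes were called lower. Of 5 bile duct cell markers, MCD raised 3 in Cre mice and 0 in the knockout. Their summed levels, of which *Spp1* alone made up 79%, were 64.14 ± 18 CPM (SD, n = 6) and 140.9 ± 22.88 CPM (n = 5) in Cre mice on chow and MCD. In liver-*Flcn*-/- mice they were 124.2 ± 47.28 CPM (n = 5) and 119 ± 21.9 CPM (n = 6). Of 8 T and NK cell markers 5 were tested, led by *Cd3g*, of which 0 rose in either genotype and 3 fell in liver-*Flcn*-/- mice. Of 4 B cell markers, led by *Cd79b*, 0 rose and 1 fell in liver-*Flcn*-/- mice.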
